A study of Mus musculus with 11 samples.

Results

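The transcripts described here are those of the mitochondrial genome, taken as every gene of the deposited table whose symbol begins with mt-. There were 37 such genes among 38406, namely 2 rRNA, 22 tRNA and 13 mRNA genes, and all 37 were placed on the mitochondrial chromosome (chrM) by the GENCODE M21 annotation of the mouse build GRCm38. Of all genes, 22225 had at least 1 read and 13215 had a mean of at least 10 normalized counts over the libraries, the level needed to enter the test. Both rRNAs, all 13 mRNAs and 4 of the 22 tRNAs reached it, 19 genes in all. The lowest genes inside were mt-Ti at 11.7 and mt-Tg at 12.2 normalized counts, and the highest outside were mt-Te at 2.84 and mt-Tv at 2.67.

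RNA-seq was made from back skin of female C57BL/6 mice aged 8 to 10 weeks, of which 6 were Trex2-/- (knockout, replicates 7 to 12) and 5 were wild type (replicates 2 to 6). Trex2 encodes a DNA exonuclease of keratinocytes. Mice of both genotypes had 125 mg of a cream with 5% imiquimod, a Toll-like receptor agonist that produces psoriasis-like inflammation, put on the shaved back each day for 4 days, and skin was taken 24 hours after the last dose. There was no untreated skin among the samples, and whole skin was pulverized, so epidermis, dermis, fat, muscle and infiltrating cells entered each library together.

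Mitochondrial DNA is a small circle transcribed from both strands into long precursors, from which the rRNAs, mRNAs and tRNAs are cut, with tRNAs marking many of the cutting sites. Its mRNAs encode core subunits of respiratory complexes I, III and IV and of ATP synthase (complex V), its rRNAs form the mitochondrial ribosome, and its tRNAs decode the mRNAs. The other proteins of mitochondria are made from nuclear genes. Most mitochondrial mRNAs end in a short poly(A) tail, whereas mature tRNAs have none, and the RNA used here had been selected for mRNA.

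The knockout libraries held 3125366 to 15557862 counted reads and the wild-type libraries 1208896 to 5853454. A count of 3 reads, the limit that 0 reads allow, stood for 1.04 to 13.5 normalized counts depending on the library, and such limits and intervals cover counting error only. Trex2 itself averaged 1.85 ± 0.91 normalized counts in knockout and 1480 ± 446 in wild-type skin (SD, n = 6 and 5), with no overlap of the groups. Wild-type replicate 2 had the highest mitochondrial share of reads of all 11 libraries and stood apart for several of the genes below. Values without it are given for some of the genes that it moved. Marker genes of skeletal muscle (18 genes, all found) summed to 43851 to 93153 normalized counts in knockout and 54798 to 97285 in wild-type skin, and those of adipocytes (11 of 11) to 8186 to 15328 in knockout and 10572 to 20113 in wild-type skin. Neutrophil markers (8 of 8) summed to 16318 to 81838 in knockout and 46344 to 110607 in wild-type skin, and keratinocyte markers (10 of 10) to 67276 to 219514 in knockout and 40587 to 106173 in wild-type skin. No marker of these 4 lists was at 0 throughout either group, and of these lists only muscle was entered into the fit, as a score per library. Fewer cells or mitochondria and less RNA in each cannot be told apart in whole skin.

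The mitochondrial share of all counted reads did not differ between genotypes beyond the spread between mice. It was lowest at 2.99%, had a median of 3.62% and was highest at 5.22% in knockout skin, against 5.55%, 3.92%, 3.47%, 3.91% and 2.87% in wild-type replicates 2 to 6. The ranges lay almost on top of each other, with knockout replicates 9 and 11 and wild-type replicate 2 at the upper end. The means were 3.94 ± 0.88% in knockout and 3.94 ± 0.99% in wild-type skin (SD, n = 6 and 5), and no exact 95% binomial (Clopper-Pearson) interval of a library was wider than 0.035 points to either side. Without wild-type replicate 2 the difference was 0.40 points, still under the SD of either group. No test was made of sums over the genes.

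In all, 2942874 reads fell on the 37 genes, of which 2753659 were on mRNAs, 188117 on rRNAs and 1098 on tRNAs. The mRNAs made up 93.8 ± 1.35% of the mitochondrial reads in knockout and 92.1 ± 1.83% in wild-type skin. The rRNAs made up 6.13 ± 1.34% in knockout and 7.87 ± 1.83% in wild-type skin. The rRNA share ran from 4.05% through a median of 6.45% to 7.72% in knockout libraries, against 6.53%, 7.72%, 5.69%, 9.70% and 9.72% in wild-type replicates 2 to 6. Wild-type replicates 5 and 6 lay above every knockout library and knockout replicates 9 and 12 below every wild-type one, while the others overlapped. Scaled to 1000000 counted reads per library (RPM), the tRNAs had 9.02 to 17.8 RPM in knockout libraries, with a median of 12.6, against 31.5, 14.9, 16.4, 19.3 and 19.2 in wild-type replicates 2 to 6. In 5 knockout libraries the value was under that of all wild-type ones, and knockout replicate 11 lay among these. Knockout replicate 9, at 14.7 RPM, nearly touched wild-type replicate 3, the shallowest library, at 14.9 RPM.

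**Figure D1:**
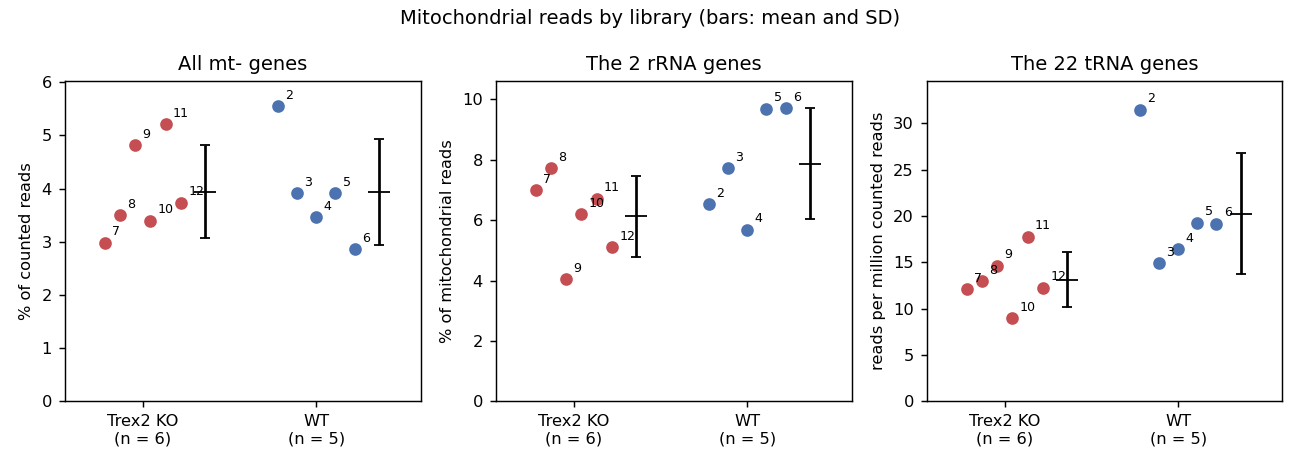
Mitochondrial reads by library, as percent of all counted reads (left), rRNA reads as percent of mitochondrial reads (middle) and tRNA reads per 1000000 counted reads (right); points are libraries with their replicate number, and bars give mean and SD. The mitochondrial shares of knockout and wild-type libraries overlap across nearly their whole ranges. In 5 of 6 knockout libraries the tRNA RPM is lower than in any wild-type library, but knockout replicate 9 nearly touches wild-type replicate 3.

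Of 9 other RNAs listed as lacking a poly(A) tail, 6 were found, and they were named after their values were seen. Their summed level was 5.54 to 19.3 normalized counts in knockout and 20.01 to 63.5 in wild-type libraries. Every knockout library thus lay below every wild-type one, but knockout replicate 11 and wild-type replicate 4 nearly touched. Of single genes tested, 2.32% did not overlap. The sum consisted mostly of Rpph1 and of Rmrp, which had 20 reads in knockout and 43 in wild-type libraries. Taken singly, Rpph1, Rmrp, Rn7sk, Rny1 and Rny3 each overlapped between genotypes. For Rpph1 and for Rmrp, 5 knockout libraries lay below every wild-type one. Terc had 2 reads in knockout and 0 in wild-type libraries. The only 1 that entered the test was Rpph1, the RNA of nuclear RNase P, with 66 reads in knockout and 73 in wild-type skin, a log2 fold change of -1.73 (SE 0.42) and an adjusted p of 0.108 by limma. The part of differences in mRNA selection between libraries in the tRNA and rRNA values was not tested.

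No mitochondrially encoded gene passed the test between genotypes. With limma on log2(normalized count + 1) and Benjamini-Hochberg adjustment over all 13215 genes, 0 of 19 had an adjusted p under 0.05, where 0.0151% of all genes tested did (2 genes). At an unadjusted p under 0.05 there were 4, mt-Tl1 and mt-Nd4l higher and mt-Ti and mt-Rnr1 lower in knockout skin, or 4 of 19 against 24.4% of all genes tested, which is close to the background. On whole reads recovered from the table, edgeR called 0 of 19 (7 at an unadjusted p under 0.05), where it called 0.0303% of all genes, with 23.0% at an unadjusted p under 0.05. On the same reads DESeq2 called 0 of the 17 to which it gave an adjusted p (7 of 34 at an unadjusted p under 0.05), where it called 4.39% of all genes, with 15.3% at an unadjusted p under 0.05. Without wild-type replicate 2, 2 of the 19 (mt-Tl1 and mt-Ti) had an unadjusted p under 0.05, and with log10 depth in the fit 0 did. In 7 of the 19 the estimate was above 0 and in 12 below. Their median log2 fold change was -0.03, against 0.01 over all genes tested, of which 51.0% were above 0. For 0 of the 19 genes did the libraries of the genotypes not overlap, which was so for 2.32% of all genes tested (1.02% with knockout above and 1.29% with knockout below wild type). The 1 added before the logarithm weighs most on genes with few reads, such as the tRNAs, so that with 0.5 in its place mt-Ti stood at -1.26 and mt-Tg at -0.78, against -1.19 and -0.87 with 1.

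**Figure D2:**
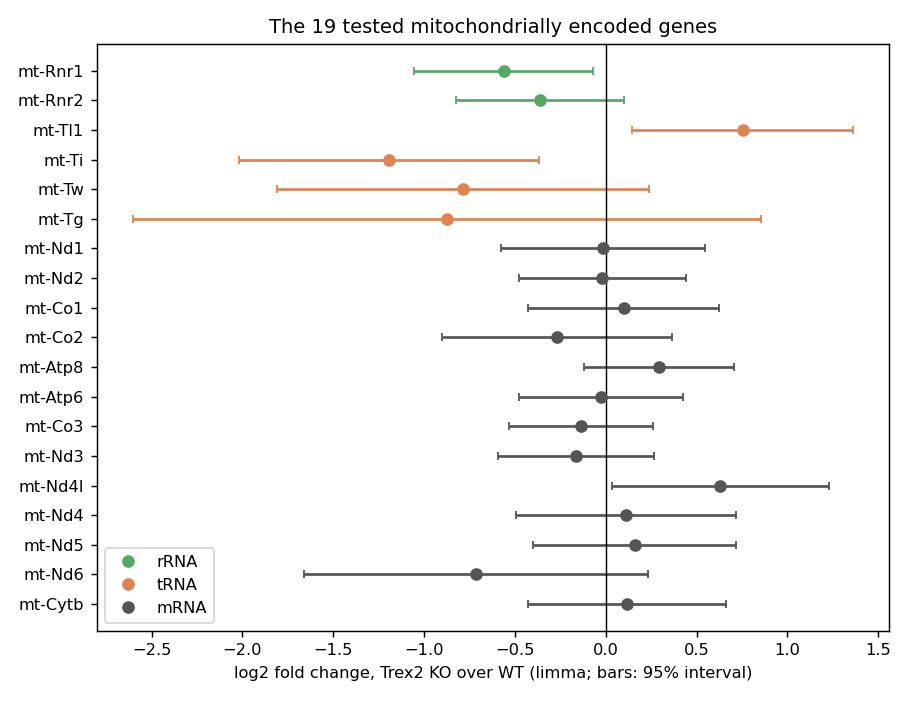
Log2 fold change of knockout over wild-type skin for the 19 tested genes, by class, from limma; points are estimates and bars 95% intervals. The mRNAs lie between -0.71 (mt-Nd6) and 0.63 (mt-Nd4l), most of them near 0, and the intervals of mt-Rnr1, mt-Tl1, mt-Ti and mt-Nd4l do not include 0 before adjustment.

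Both rRNAs had lower estimates in knockout skin without passing the test. The 12S rRNA mt-Rnr1 (chrM:70-1024), of the small ribosomal subunit, was lowest at 1642, had a median of 2107 and was highest at 3154 normalized counts in knockout libraries, against 5083, 3412, 2035, 3711 and 2558 in wild-type replicates 2 to 6. Knockout replicates 10 and 12 lay below every wild-type library, and the other 4 overlapped with wild type. Its log2 fold change was -0.56 (SE 0.23, 95% interval -1.05 to -0.07), with an adjusted p of 0.163 by limma. With log10 depth in the fit it was -0.43 (adjusted p 0.892 by limma), and with the muscle score in the fit -0.37 (adjusted p 0.332). Leaving out wild-type replicate 2 gave -0.40.

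The 16S rRNA mt-Rnr2, of the large subunit, ran from 8664 through a median of 9095 to 14769 normalized counts in knockout libraries, against 16823, 13087, 8238, 16449 and 12724 in wild-type replicates 2 to 6. Wild-type replicate 4 lay below every knockout library and the groups overlapped. Its log2 fold change was -0.36 (SE 0.22), with an adjusted p of 0.307 by limma. Per length, the level of mt-Rnr2 was 284 ± 24.6% of that of mt-Rnr1 in knockout and 249 ± 37.8% in wild-type skin. It exceeded 100% in every library, from 246% to 319% in knockout and from 200% to 300.3% in wild type.

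Among the 13 mRNAs, 6 had a log2 fold change above 0 and 7 below, with a median of -0.01, and their standard errors ran from 0.18 to 0.44. The mRNAs differed far more from each other than between genotypes. Per kilobase, the median over the 11 libraries was 35227 normalized counts for mt-Atp6, the channel subunit of ATP synthase, and 33985 for mt-Atp8, a small subunit of the same complex. Then came mt-Co2 at 30759, mt-Nd1 at 25775, mt-Co3 at 23015, mt-Co1 at 20439 and mt-Nd3 at 16843. Lower still were mt-Nd2 at 13065, mt-Nd4 at 10397, mt-Cytb at 9768 and mt-Nd5 at 5242. The lowest were mt-Nd6 at 796 and mt-Nd4l at 318, and in counts per kilobase mt-Nd4l stood 110.7-fold below mt-Atp6. These are levels of the reads assigned to each gene. A nuclear copy is identical to mt-Nd4l over 294 of its 297 bases, and the part of read assignment in its low level was not tested. Near the top of the order, mt-Atp6 (678 of 681 bases) and mt-Co2 (681 of 684) have identical copies too.

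Not every neighbour in this order was distinct. The level of mt-Atp6 exceeded that of mt-Atp8 in 6 of 11 libraries, that of mt-Atp8 exceeded mt-Co2 in 5 of 11, and that of mt-Nd4 exceeded mt-Cytb in 7 of 11, so these pairs were not separated beyond the spread between libraries. By contrast mt-Co2 lay above mt-Nd1, mt-Nd2 above mt-Nd4, mt-Nd5 above mt-Rnr1 and mt-Nd6 above mt-Nd4l in all 11. The rRNAs fell low in the order, with mt-Rnr2 at 7428 and mt-Rnr1 at 2633 normalized counts per kilobase, in RNA that had been selected for mRNA.

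**Figure D3:**
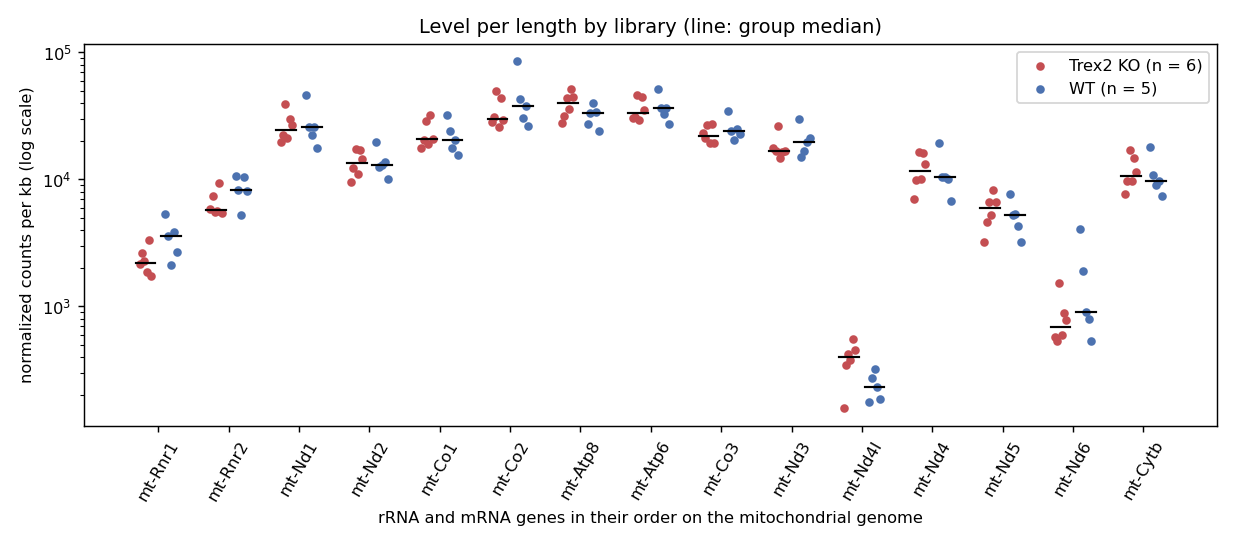
Normalized counts per kilobase of gene length (log scale) for the 2 rRNA and 13 mRNA genes in their order on the mitochondrial genome; points are libraries and lines group medians. Knockout and wild-type points overlap for every gene, and the group medians of mt-Nd4l and mt-Nd6 lie below those of all other mRNAs.

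The 7 complex I mRNAs (mt-Nd1 to mt-Nd6 and mt-Nd4l) encode the membrane part of NADH dehydrogenase and held 37.2 ± 2.30% of the mitochondrial mRNA reads in knockout and 36.4 ± 1.62% in wild-type skin. The most abundant of them per length, mt-Nd1, was lowest at 18857, had a median of 23519 and was highest at 37902 normalized counts in knockout libraries, against 44013, 24801, 21329.6, 24667 and 16859.7 in wild-type replicates 2 to 6. Its lowest and highest libraries were both wild type. The log2 fold change was -0.01 (SE 0.26, adjusted p 0.977 by limma), and 4 others, mt-Nd2 (-0.02), mt-Nd3 (-0.16), mt-Nd4 (0.11) and mt-Nd5 (0.16), had standard errors larger than their estimates.

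A pair of complex I mRNAs stood further from 0. The level of mt-Nd4l was lowest at 46.8, had a median of 119 and was highest at 164 normalized counts in knockout libraries, against 52.6, 81.2, 94.5, 69.0 and 54.9 in wild-type replicates 2 to 6. Of the 6 knockout libraries, 5 lay above every wild-type library, and replicate 7, the shallowest knockout library, lay below them all. The log2 fold change was 0.63 (SE 0.28, 95% interval 0.03 to 1.23), with an adjusted p of 0.187 by limma, on 1313 reads in knockout and 243 in wild-type skin. With log10 depth in the fit it was 0.22 (adjusted p 0.938 by limma), and among libraries of 3000000 to 8000000 reads (knockout replicates 7 to 9 and wild-type replicates 2, 4, 5 and 6) it was 0.35.

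The only mRNA of the light strand, mt-Nd6, was lowest at 276, had a median of 357 and was highest at 792 normalized counts in knockout libraries, against 2129, 988, 473, 413 and 278 in wild-type replicates 2 to 6. Wild-type replicates 2 and 3 lay above all other libraries, and the rest overlapped. The log2 fold change was -0.71 (SE 0.44, adjusted p 0.325 by limma), and -0.29 without wild-type replicate 2. In human cells this mRNA has been described without the poly(A) tail that other mitochondrial mRNAs carry. Genes of the light strand together, mt-Nd6 and 8 tRNAs, had 0.151% to 0.294% of mitochondrial reads in knockout and 0.184% to 0.640% in wild-type libraries.

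Complex III has a single mitochondrial subunit, cytochrome b (mt-Cytb), which held 6.74 ± 0.53% of the mitochondrial mRNA reads in knockout and 6.15 ± 0.27% in wild-type skin and had a log2 fold change of 0.12 (SE 0.25). The 3 catalytic core subunits of cytochrome c oxidase, complex IV, held 39.5 ± 2.59% in knockout and 41.3 ± 2.34% in wild-type skin. Of these, mt-Co1 ran from 27123 through a median of 31972 to 50036 normalized counts in knockout libraries, against 49644, 37062, 27093, 31393 and 23849.9 in wild-type replicates 2 to 6. The groups overlapped almost fully, with a log2 fold change of 0.10 (SE 0.25). The level of mt-Co2 ran from 17751 through a median of 20607 to 33758 in knockout libraries, against 58206, 29174, 20665, 25829.5 and 17975 in wild-type replicates 2 to 6. Wild-type replicate 2 was high above all others, and its removal took the log2 fold change of mt-Co2 to 0.00, where with it the value was -0.27 (SE 0.29, adjusted p 0.591 by limma). The third subunit, mt-Co3, had a log2 fold change of -0.14 (SE 0.18). Without wild-type replicate 2, mt-Co3 and mt-Nd3 both stood at -0.02, mt-Nd1 at 0.19, mt-Co1 at 0.25, mt-Cytb at 0.31 and mt-Nd4 at 0.32, none past the threshold by limma.

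Both mitochondrial subunits of complex V together held 16.6 ± 0.75% of mitochondrial mRNA reads in knockout and 16.1 ± 1.91% in wild-type skin. The level of mt-Atp8 ran from 5629 through a median of 8111 to 10456 normalized counts in knockout libraries, against 5571, 6742, 8218, 6933 and 4894 in wild-type replicates 2 to 6. In 3 knockout libraries it was above all 5 wild-type ones, and its estimate was 0.29 on the log2 scale (SE 0.19, adjusted p 0.352 by limma). For mt-Atp6 the log2 fold change was -0.03 (SE 0.21).

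Several of these mRNAs share bases with a neighbour. The junctions are shown because reads that cover them belong to both genes, and whether such reads were counted for 1 gene, both or neither is not given in the sources used here. Each is the plus strand of GRCm38, read from the GENCODE M21 transcripts, with the bases that belong to both genes in capitals. They span chrM:7907-7989, chrM:10147-10193 and chrM:13532-13585.
mt-Atp8 to mt-Atp6: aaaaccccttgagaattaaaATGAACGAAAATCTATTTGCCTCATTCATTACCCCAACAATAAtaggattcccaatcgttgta
mt-Nd4l to mt-Nd4: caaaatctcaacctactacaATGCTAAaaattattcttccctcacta
mt-Nd5 to mt-Nd6: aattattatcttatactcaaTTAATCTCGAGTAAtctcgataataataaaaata
The first overlap takes up 43 of the 204 bases of mt-Atp8, and the second 7 of the 297 of mt-Nd4l. In both, the capitals open with the start codon of the downstream gene and close with the last base of the upstream one. In the third, 14 bases are shared by genes on opposite strands, so without a stated strand setting reads of mt-Nd6 and of RNA antisense to it cannot be told apart.

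The balance between neighbours within a library removes the overall mitochondrial level. Per length, mt-Atp8 stood at 108 ± 14.6% of mt-Atp6 in knockout and 89.1 ± 24.6% in wild-type skin, with knockout libraries between 90.9% and 126% and wild-type replicates 2 to 6 at 53.1%, 89.9%, 122%, 92.5% and 87.8%. Wild-type replicate 2 was lowest, and the other wild-type libraries lay within or just below the knockout range. The level of mt-Nd4l was 2.25% to 3.78% of that of mt-Nd4 in knockout libraries, with a median of 3.42%, against 0.921%, 2.63%, 3.03%, 2.32% and 2.75% in wild-type replicates 2 to 6. In 4 of 6 knockout libraries, replicates 8, 10, 11 and 12, it lay above every wild-type library. The level of mt-Nd6 was 10.8% to 23.0% of that of mt-Nd5 in knockout libraries, with a median of 11.6%, against 53.7%, 36.3%, 17.0%, 18.4% and 16.8% in wild type. The same 4 of 6 knockout libraries lay below every wild-type one. These 4 were the deepest of all 11 libraries, and the part of depth in these 2 ratios was not tested.

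Of the 78 pairs of mRNAs, 1 (1.28%) had a ratio whose values did not overlap between genotypes, that of mt-Co2 to mt-Co1, and it was singled out after its values were seen. Per length, mt-Co2 was 162%, 150.5%, 169.7%, 136%, 135% and 141% of mt-Co1 in knockout replicates 7 to 12, against 265%, 178%, 172%, 186% and 170.2% in wild-type replicates 2 to 6. The highest knockout and the lowest wild-type library nearly touched. The 3 deepest libraries, knockout replicates 10 to 12, had the 3 lowest ratios, and the part of depth in this was not tested. No test was made of the ratios.

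**Figure D4:**
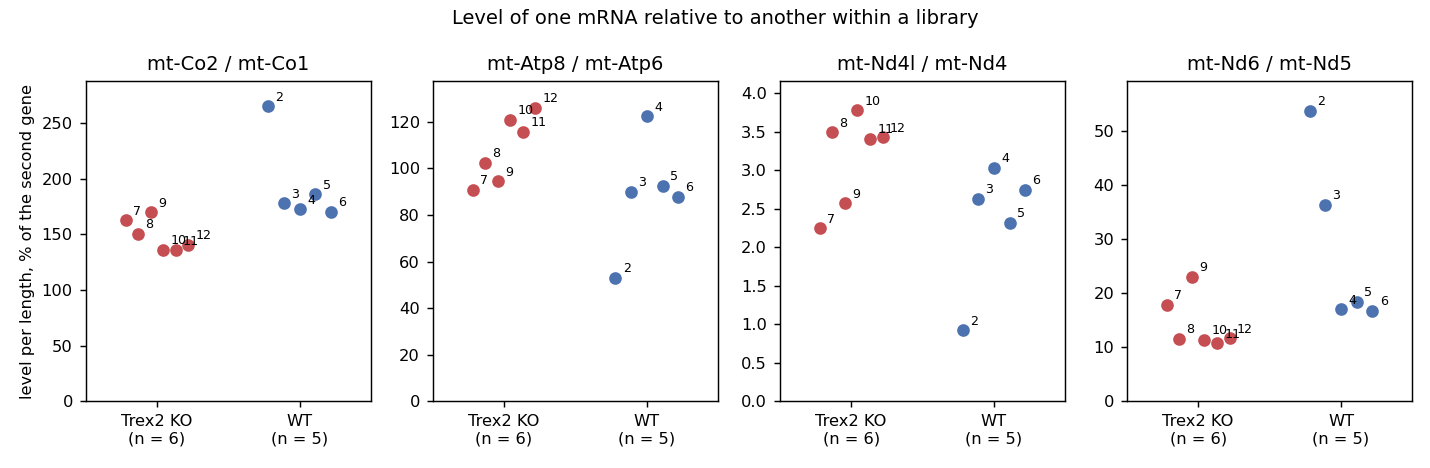
Level per length of 1 mRNA as percent of another within each library, for 4 pairs; points are libraries with their replicate number. The ratio of mt-Co2 to mt-Co1 is 135% to 170% in knockout and 170% to 265% in wild-type libraries, and wild-type replicate 2 lies at an end of the range in all 4 panels.

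The tRNAs were scarce. Of the 22, 3 (mt-Tf, mt-Tc and mt-Ty) had no read in any library, and 4 (mt-Tl1, mt-Ti, mt-Tw and mt-Tg) held 912 of the 1098 tRNA reads, or 83.1%. The other 15 with reads had at most 35 reads over all 11 libraries. The 14 tRNAs of the heavy strand had 1027 reads and the 8 of the light strand 71. The 4 that entered the test are printed as their genes read on the plus strand of GRCm38, from the GENCODE M21 transcripts, with the anticodon in capitals, since these short sequences are all that the counts below rest on. They lie at chrM:2676-2750, chrM:3706-3774, chrM:4950-5016 and chrM:9391-9458.
mt-Tl1: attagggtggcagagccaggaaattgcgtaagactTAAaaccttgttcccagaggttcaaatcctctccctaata
mt-Ti: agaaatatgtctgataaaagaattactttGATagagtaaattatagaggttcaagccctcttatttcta
mt-Tw: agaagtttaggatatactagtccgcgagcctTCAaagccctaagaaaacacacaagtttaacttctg
mt-Tg: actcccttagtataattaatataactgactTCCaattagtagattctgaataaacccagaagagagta
All 4 directly adjoin or overlap a neighbouring mRNA or rRNA gene on the same strand. For mt-Ti the first 2 bases are also the last of mt-Nd1, and for mt-Tw the first 2 are the last of mt-Nd2. Reads of mature tRNAs and of precursors that run through them cannot be told apart.

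The leucine tRNA mt-Tl1 follows mt-Rnr2. It was lowest at 15.6, had a median of 22.5 and was highest at 31.1 normalized counts in knockout libraries, against 10.9, 22.6, 13.3, 15.4 and 7.85 in wild-type replicates 2 to 6. All 6 knockout libraries lay above 4 of the 5 wild-type ones, and 3 of them above all 5. For this tRNA the log2 fold change was 0.75 (SE 0.28), with an adjusted p of 0.144 by limma, on 263 reads in knockout and 45 in wild-type skin.

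The isoleucine tRNA mt-Ti, next to mt-Nd1, had the opposite sign. It ran from 3.16 through a median of 5.38 to 13.9 normalized counts in knockout libraries, against 10.9, 27.1, 18.9, 13.6 and 14.1 in wild-type replicates 2 to 6. The values of 4 knockout libraries were under those of all 5 wild-type ones. Its log2 fold change was -1.19 (SE 0.38), with an adjusted p of 0.116 by limma, on 62 reads in knockout and 53 in wild-type skin. With log10 depth in the fit it was -0.45 (adjusted p 0.893 by limma), whereas mt-Tl1 then stood at 0.74.

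The tryptophan tRNA mt-Tw ran from 8.68 through a median of 18.7 to 32.7 normalized counts in knockout libraries, against 131, 18.1, 21.1, 33.6 and 23.5 in wild-type replicates 2 to 6. Wild-type replicate 2 stood far above all other libraries, and without it the log2 fold change was -0.30, where with it the value was -0.78 (SE 0.48, adjusted p 0.317 by limma). The glycine tRNA mt-Tg, which lies between mt-Co3 and mt-Nd3, ran from 1.74 through a median of 5.99 to 12.1 in knockout libraries, against 12.7, 0, 17.8, 25.4 and 37.7 in wild-type replicates 2 to 6. Replicate 3, the shallowest library, had no read of it, which allows up to 13.5 normalized counts, and the other 4 lay above every knockout library. For mt-Tg the log2 fold change was -0.87 (SE 0.81, adjusted p 0.513 by limma), and ran from -1.77 without that replicate to -0.46 without wild-type replicate 6. On recovered reads mt-Tg stood at -1.79 by edgeR (adjusted p 0.129) and at -1.66 by DESeq2, which gave it no adjusted p.

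**Figure D5:**
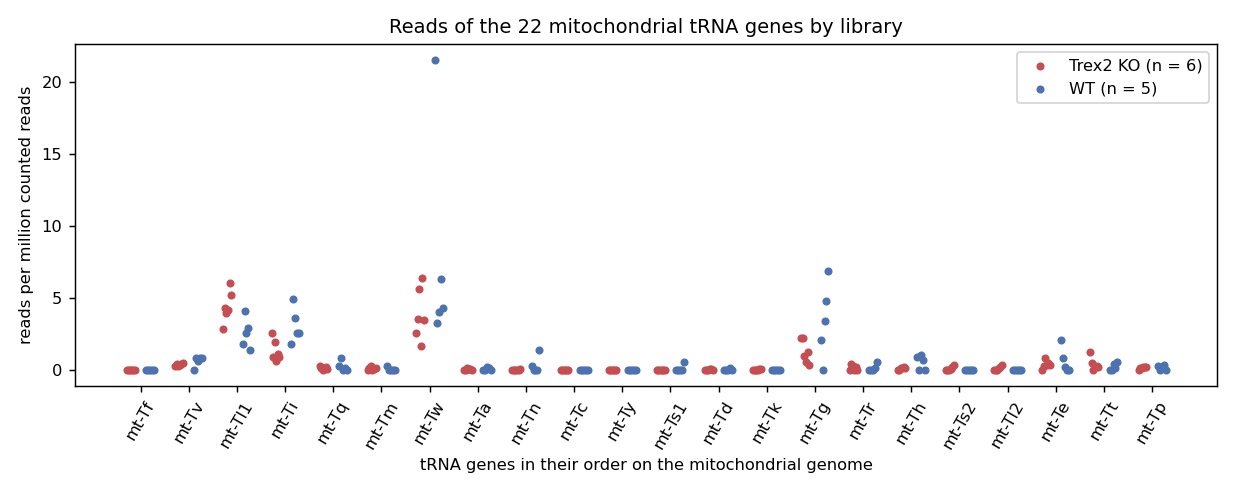
Reads per 1000000 counted reads for the 22 mitochondrial tRNA genes in genome order; points are libraries. Only mt-Tl1, mt-Ti, mt-Tw and mt-Tg stand clear of 0 in most libraries, mt-Tl1 is higher and mt-Ti lower in most knockout libraries, and 1 wild-type library (replicate 2) is far above the rest for mt-Tw.

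Copies of mitochondrial DNA in the nuclear genome can compete for reads. Transcripts of GENCODE M21 held 17 such copies (identity of at least 90% over at least 100 bases), of 11 of the 13 mRNA genes, with 7 of them on chromosome 1. Those on chromosome 1 included stretches identical to mt-Atp6, mt-Co2, mt-Co3, mt-Nd4 and mt-Nd4l. Of the 17, 9 had a row in the table and 8 were not analysed here. The highest was Gm13341, a copy of mt-Co2 with 95.9% identity, at 33.3 ± 8.76 normalized counts in knockout and 45.1 ± 21.4 in wild-type skin, or 0.145% of mt-Co2, with a log2 fold change of -0.34 (SE 0.29). Gm13340, a copy of mt-Co1 with 97.6% identity, had 11.0 ± 4.2 in knockout and 8.83 ± 3.88 in wild-type skin and a log2 fold change of 0.28 (SE 0.41). Gm10222, identical to mt-Nd4l over 294 bases, had 3 reads in knockout and 0 in wild-type libraries. Whether reads that match a copy equally well were dropped is not given in the sources used here, and the levels of these mRNAs relative to others are therefore uncertain.

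The nuclear genes that work with the mitochondrial ones gave no call by limma either. In 11 lists with 247 tested genes, 0 passed at an adjusted p under 0.05, and 27 had an unadjusted p under 0.05, 20 higher and 7 lower in knockout skin, against 12.9% and 11.5% of all genes tested. Of these genes, 103 had a log2 fold change above 0 and 144 below, with a median of -0.06. edgeR called 0 of them, and DESeq2 called 1, Ndufa2, lower.

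Nuclear subunits of the respiratory complexes had mostly negative estimates. Of 76 tested, 13 were above 0, where 51.0% of all genes tested were, and 2 were higher and 3 lower at an unadjusted p under 0.05 (12.9% and 11.5% of all genes tested). Subunits of complex I summed to 12669 to 13006 normalized counts in knockout replicates 10 to 12, the 3 deepest libraries. Wild-type libraries had 14030 to 22846, and knockout replicates 7 to 9 lay within that range. The part of depth in these signs was not tested. The medians were -0.18 for 36 subunits of complex I, -0.20 for 4 of complex II, -0.11 for 9 of complex III, -0.19 for 12 of complex IV and -0.11 for 15 of complex V, and all 12 of complex IV were below 0. Members of 1 complex nevertheless differed in sign. In complex I, the accessory subunit Ndufa2 averaged 326 ± 69.4 normalized counts in knockout and 502 ± 127 in wild-type skin (log2 fold change -0.61, SE 0.18, adjusted p 0.108 by limma). The iron-sulfur subunit Ndufs1 averaged 532 ± 52.1 in knockout and 408 ± 61.3 in wild-type skin (0.39, SE 0.12, adjusted p 0.113 by limma). Every knockout library lay above every wild-type one. Among all genes tested 2.32% did not overlap in either direction, and Ndufs1 was named for its small p.

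In the other complexes none of the named genes passed. In complex II, succinate dehydrogenase, Sdhc and Sdhb both had a log2 fold change of -0.26. In complex III the core subunits Uqcrc1 and Uqcrc2 both stood at 0.24. In the complex IV list Cox7a2l stood at -0.42 and the subunit Cox6a1 at -0.35. In complex V the catalytic subunit Atp5a1 averaged 3336 ± 363 normalized counts in knockout and 2719.9 ± 153 in wild-type skin (0.29, SE 0.12, adjusted p 0.163 by limma). Its groups did not overlap (2.32% of all genes tested), and it too was named for its small p. The small subunit Atp5e of the same complex stood at -0.50 (SE 0.24).

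The proteins that make, process and translate mitochondrial RNA were also described by list. The 76 mitochondrial ribosomal proteins had a median log2 fold change of -0.10, with 26 above 0 and 50 below, among them Mrpl33 and Mrps6, both at -0.40. Of 17 mitochondrial aminoacyl-tRNA synthetases, which load tRNAs with amino acids, 14 were above 0, with a median of 0.17 and 4 higher and 1 lower at an unadjusted p under 0.05, against 12.9% higher and 11.5% lower among all genes tested. The 1 lower was the leucine enzyme Lars2. It was lowest at 1102, had a median of 3862 and was highest at 21068 normalized counts in knockout libraries, against 19576, 12297, 4085, 14122 and 35668 in wild-type replicates 2 to 6. The values of 4 knockout libraries were under all 5 wild-type ones, and its estimate was -1.80 on the log2 scale (SE 0.64, adjusted p 0.132 by limma). Its SD in knockout skin, 7417, exceeded its mean of 6108. The 17 synthetases together averaged 7673 normalized counts in knockout and 18510 in wild-type skin, most of it from Lars2 (6108 and 17150). What part of the Lars2 reads came from the mRNA of the enzyme was not tested. The valine enzyme Vars2 stood at 0.42 (SE 0.16).

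Of 14 tested genes of mitochondrial DNA replication and transcription, 7 were above 0 and 7 below, with Mterfd2, of the termination factor family, at -0.41 and the topoisomerase Top1mt at 0.38. Among 30 genes of mitochondrial RNA processing and stability, 17 were above 0, and 7 were higher and 1 lower at an unadjusted p under 0.05, where 12.9% and 11.5% of all genes tested were. The tRNA-modifying protein Mto1 averaged 86.4 ± 6.86 normalized counts in knockout and 59.0 ± 11.0 in wild-type skin (0.56, SE 0.15, adjusted p 0.108 by limma). Its groups did not overlap (2.32% of all genes tested), and Mto1 was named for its small p. Elac2, which cuts the end of tRNAs from the precursor, averaged 242 ± 42.3 in knockout and 169 ± 35.4 in wild-type skin (0.53, SE 0.16, adjusted p 0.112 by limma). Neither passed the threshold.

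Of 7 regulators of mitochondrial biogenesis, 5 were above 0, with the coactivator Pprc1 at 0.44 and the transcription factor subunit Gabpa at 0.28. Of 27 citrate cycle, import and carrier genes, 21 were above 0, with a median of 0.18 and 6 higher at an unadjusted p under 0.05 (12.9% of all genes tested), among them the chaperonin Hspd1 at 0.44 and the citrate cycle enzyme Ogdh at 0.34. These lists and the respiratory subunits thus had medians of opposite sign, a difference for which no test was made. In the same libraries all 8 neutrophil markers had negative estimates (median -1.15) and all 10 keratinocyte markers positive ones (median 1.63). By limma 0 of them passed the threshold. At an unadjusted p under 0.05 by limma, 8 neutrophil markers were lower and 6 keratinocyte markers higher (11.5% and 12.9% of all genes tested). DESeq2 called 3 neutrophil and 2 keratinocyte markers, where it called 4.39% of all genes. The sums of both lists overlapped between genotypes, and the part of these markers in the values above was not tested.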

How the data were processed

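RNA-seq of imiquimod-treated back skin from 6 Trex2-/- and 5 wild-type mice was used. The deposited table holds a normalized signal, a read count divided by 1 size factor per library by the authors. The tools were TopHat2 2.0.8 and featureCounts 1.4.6 with DESeq2 1.8.1, on GRCm38, per the submitters' processing notes. The sources used here do not give their order, the annotation version, the strand setting or the handling of reads with several matches. Columns were matched to samples by the replicate number in the title. Nothing in the labels says whether libraries were made in batches, so p-values measure the spread between these samples.

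Dividing by the smallest step of each library gave whole reads (100% of values within 0.01 of a read). All pairs of libraries of the same genotype differed beyond sampling noise, with a lowest chi-square over its degrees of freedom of 4.43, and all libraries were kept as replicates. limma 3.58.1 with a mean-variance trend in R 4.3.3 was fitted to log2(normalized count + 1) for genes with a mean of at least 10, with Benjamini-Hochberg adjustment over all of them and a threshold of 0.05. edgeR 4.0.16 and DESeq2 1.42.0 on the recovered reads, other pseudocounts, filters and scalings, depth or a muscle score as covariate and the omission of libraries were alternatives. The limma script was tested on simulated data. Lengths, overlaps and sequences came from GENCODE M21, and nuclear copies were sought with blastn 2.17.0. The genes named are all those with mt- symbols, Trex2, the 2 of smallest p in each nuclear list (up to 4 past the threshold) and nuclear copies with a mean of at least 10; the RNAs without a poly(A) tail and the ratio of mt-Co2 to mt-Co1 were named after their values were seen. The members and lists were chosen with earlier results of these data known.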

Additional observations from a re-analysis of the deposited data

Results flagged for a closer look

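Single libraries lay far from the rest of their group in 5 of 56 checks (28 measures in each genotype), by the ratio of the gap to the range in Dixon's test; chance alone gives about 1 in 20. In knockout replicate 9, mt-Nd3 had 9211 normalized counts, where the next knockout library had 6102. In the same library mt-Nd6 had 792 normalized counts, where the next had 463, and light-strand genes made up 0.294% of mitochondrial reads, where the next had 0.201%, a share that consists mostly of mt-Nd6. In wild-type replicate 2, mt-Co2 had 58206 normalized counts, where the next wild-type library had 29174. In that library mt-Tw had 131 normalized counts, where the next had 33.6. The causes were not tested.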

How the results depend on the processing

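The count of mitochondrially encoded genes past the threshold was 0 under each of the 25 alternatives. Of 471 fold changes of these genes under alternatives, 443 kept their direction, and 11 of the 19 genes never changed it. With RPM, mt-Nd1 stood at 0.0329, mt-Nd2 at 0.0288 and mt-Atp6 at 0.0188. With log10 depth in the fit, mt-Nd4 stood at -0.10 and mt-Nd5 at -0.0748, and with the muscle score mt-Nd1 at 0.00102. In libraries of 3000000 to 8000000 reads mt-Nd4 stood at -0.0538 and mt-Nd5 at -0.0790, and without knockout replicates 9 and 12 mt-Nd4 at -0.0596 and mt-Cytb at -0.0357. Leaving out 1 library at a time gave -0.16 to 0.19 for mt-Nd1, -0.12 to 0.12 for mt-Nd2, -0.13 to 0.10 for mt-Atp6, -0.0154 to 0.25 for mt-Co1, -0.42 to 0.00123 for mt-Co2, -0.00805 to 0.31 for mt-Cytb and -0.0542 to 0.32 for mt-Nd4. It gave -0.27 to 0.40 points for the difference in mitochondrial share and -2.28 to -1.28 points for that in rRNA share (-1.74 with all libraries).

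Over all genes, 2 passed with limma, 4 with edgeR, 560 with DESeq2 and 2 to 740 with 1 library left out, the highest without wild-type replicate 4; of the nuclear mitochondrial genes 0 passed with limma, 1 with DESeq2 and 0 to 2 with 1 library left out, 2 without that same replicate. The cause was not tested. With log10 depth in the fit 0 of the 19 genes had an unadjusted p under 0.05, with the muscle score 2 and in libraries of 3000000 to 8000000 reads 1; knockout libraries were mostly deeper, so depth and genotype are partly confounded. Low depth limits the tRNAs most. No paired analysis was possible because the genotypes share no replicate number.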
